A study of Rattus norvegicus with 30 samples.

Results

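A set of 3 genes that clear catecholamines from the tissue around heart cells was followed: Slc22a3, which carries them across the plasma membrane, and Maoa and Maob, which break them down inside the cell. They were chosen by name, with their response to isoproterenol in these arrays already known, as every probe set that the platform annotation assigns to 1 of the 3 symbols. That gave 3 of 14218 named genes, with 3 probe sets of the 31099 on the array, 1387189_at for Slc22a3, 1370678_s_at for Maoa and 1368514_at for Maob, so each gene rests on 1 probe set. No probe set that names several genes names any of them.

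The hearts came from male Crl:WI(Han) rats, an outbred Wistar stock, treated with 1 dose of isoproterenol hydrochloride, a beta-adrenergic agonist made as an analogue of adrenaline, or with vehicle alone. Isoproterenol arrays numbered 5, 4, 4 and 5 at 1, 3, 24 and 72 h after the dose, and vehicle arrays numbered 3 at each time, 30 in all. All groups share the strain, the sex, the tissue, labelled cardiac muscle, and the array type, RAT230_2. The dose is written as 0.5 with a unit that does not settle the amount per body weight, and the design text puts the last time earlier than the 72 h of the sample labels, which are followed here. Vehicle arrays carry lower array numbers than isoproterenol arrays throughout, so the order of the arrays and the treatment cannot be told apart. Arrays of a group are labelled biological replicates, but no label ties an array to an animal, so the p-values reflect the spread between arrays, which may be partly technical.

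Slc22a3, also called organic cation transporter 3 or the extraneuronal monoamine transporter, moves noradrenaline, adrenaline and isoproterenol into non-neuronal cells without needing sodium, and corticosteroids block it. Catecholamines that enter a cell this way meet the monoamine oxidases. Maoa and Maob are flavoenzymes of the outer mitochondrial membrane that turn monoamines into aldehydes, with ammonia and hydrogen peroxide as by-products. Maoa prefers serotonin and noradrenaline, Maob prefers phenylethylamine, and both act on dopamine. Isoproterenol is a poor substrate of the monoamine oxidases.

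The sequences just upstream of the 3 genes are shown because they carry different short motifs, although all 3 genes had their lowest value against vehicle at 24 h after quantile normalization. Each is the 250 bases before the annotated start, 5′ to 3′ on the gene's own strand, from RefSeq on GRCr8, which served only for names and sequences because the array values have no build. Capitals mark GGGCGG, the GC box bound by Sp-family factors, or its reverse complement CCGCCC, and TGACG, the half-site of the cAMP response element.
Slc22a3, chr1:50782968-50783217, plus strand: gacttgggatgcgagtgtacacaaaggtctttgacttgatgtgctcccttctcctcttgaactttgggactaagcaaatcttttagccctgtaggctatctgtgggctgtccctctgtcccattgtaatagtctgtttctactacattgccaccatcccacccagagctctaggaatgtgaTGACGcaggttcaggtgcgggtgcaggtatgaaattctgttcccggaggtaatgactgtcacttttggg
Maoa, chrX:8681373-8681622, minus strand: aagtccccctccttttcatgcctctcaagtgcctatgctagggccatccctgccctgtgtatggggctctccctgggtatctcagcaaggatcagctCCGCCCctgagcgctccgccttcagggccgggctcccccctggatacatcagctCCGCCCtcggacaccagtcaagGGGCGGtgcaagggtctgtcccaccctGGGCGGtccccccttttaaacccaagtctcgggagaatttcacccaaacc
Maob, chrX:8490155-8490404, plus strand: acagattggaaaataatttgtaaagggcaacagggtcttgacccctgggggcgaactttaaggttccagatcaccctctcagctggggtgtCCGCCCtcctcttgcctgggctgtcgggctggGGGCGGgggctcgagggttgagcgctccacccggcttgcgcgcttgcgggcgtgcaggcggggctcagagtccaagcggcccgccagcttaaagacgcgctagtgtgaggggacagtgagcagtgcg

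The Maoa window held 4 GC boxes and the Maob window held 2, on either strand, and the Slc22a3 window held none. At least 1 GC box was present in 30.5% of 33469 rat promoter windows of the same length, at least 2 in 14.8% and at least 4 in 3.67%. The Slc22a3 window held 1 TGACG, a motif present in 18.2% of the windows, and the Maoa and Maob windows held none. The full element TGACGTCA, which contains the half-site, the E-box CACGTG and the TATA motif TATAAA were in none of the 3 windows, against 1.59%, 5.59% and 12.9% of all windows. Guanine and cytosine made up 48.8% of the Slc22a3 window, 62.4% of the Maoa window and 63.6% of the Maob window, where the median over all windows was 51.2%. A match describes the letters of the window and not a binding site.

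Levels are given as log2(intensity + 16) after quantile normalization, and differences on that scale understate the change of dim probe sets. All 3 probe sets passed the filter on low values, a deposited intensity of 23 or more in at least 3 arrays. Maoa and Maob reached 23 on all 30 arrays and Slc22a3 on 29 of 30, missing it on isoproterenol replicate 2 at 72 h with an intensity of 18.6. Deposited intensity ran between 18.6 and 370.2 for Slc22a3, between 1316.2 and 4420.4 for Maoa and between 38.1 and 246.2 for Maob. The probe sets have different probes, so their levels were not set against each other. In heart tissue as a whole, fewer cells of a type and less RNA per cell cannot be told apart.

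Of cardiomyocyte markers, 11 of 12 were measured, and their summed normalized intensity lay between 81902 and 98915 on the 30 arrays. Array medians of the deposited intensity ran between 21.2 and 70.3, and arrays of 1 group correlated with each other at 0.934 to 0.984. Among 24292 tested probe sets, limma called 2.65% at 1 h, 11.4% at 3 h, 13% at 24 h and 17.8% at 72 h as different between isoproterenol and vehicle in either direction at an adjusted p under 0.05. Because the 3 genes were picked for those contrasts, their values are described without a test.

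Slc22a3 in isoproterenol hearts was close to vehicle in the first hours, far below it at 24 h and below it with a wide spread at 72 h. At 1 h its normalized level was 7.87, 7.996, 7.96, 8.10 and 8.06 in isoproterenol hearts, against 7.92, 7.996 and 7.84 in vehicle hearts. The 2 groups overlapped, and the difference was 0.08 ± 0.35 (SE) on the log2 scale. At 3 h the level was 7.51, 7.77, 7.93 and 7.91 in isoproterenol hearts, against 7.41, 7.31 and 8.01 in vehicle hearts, again overlapping, with a difference of 0.20 ± 0.36.

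At 24 h the Slc22a3 level was 5.74, 4.99, 6.47 and 5.77 in isoproterenol hearts, against 8.08, 7.55 and 8.25 in vehicle hearts. Every isoproterenol array lay below every vehicle array, with more than 1 log2 unit between the nearest of them, and 11.2% of all probe sets also had isoproterenol groups wholly below vehicle at that time. The means were 5.74 ± 0.60 in isoproterenol hearts (SD, n = 4) and 7.96 ± 0.37 in vehicle hearts (SD, n = 3). The difference of -2.22 ± 0.36 (SE) put isoproterenol hearts at 21.5% of vehicle, 4.65-fold lower. Of the 24292 tested probe sets, 1 had a more negative difference at 24 h. The deposited intensity had a median of 62.6 in isoproterenol hearts and 237.6 in vehicle hearts, so the gap was present before normalization. The difference at 24 h was lower than that at 3 h by 2.42 ± 0.51 on the log2 scale, a description of the same arrays.

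At 72 h the Slc22a3 level was 7.94, 5.56, 5.58, 7.21 and 6.26 in isoproterenol hearts, against 7.93, 8.31 and 7.70 in vehicle hearts. Isoproterenol replicate 1 lay among the vehicle arrays and the other 4 isoproterenol arrays lay below all of them. The means were 6.51 ± 1.04 in isoproterenol hearts (SD, n = 5) and 7.98 ± 0.31 in vehicle hearts (SD, n = 3). The difference of -1.47 ± 0.35 (SE) put isoproterenol hearts at 36.2% of vehicle, 2.76-fold lower, and without isoproterenol replicate 1 it was -1.82. That SE rests on a spread of 0.48 shared by all 8 groups, under the SD of 1.04 among these isoproterenol arrays. At 72 h, 0.247% of tested probe sets had a more negative difference than Slc22a3.

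Ordered by group mean, Slc22a3 was highest in isoproterenol hearts at 1 h, followed by vehicle hearts at 72, 24 and 1 h, isoproterenol hearts at 3 h and vehicle hearts at 3 h, and these 6 means lay between 7.58 and 7.998. Neighbours in that order had overlapping arrays. The isoproterenol groups at 72 and 24 h came last, at 6.51 and 5.74, and they overlapped each other.

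**Figure D1:**
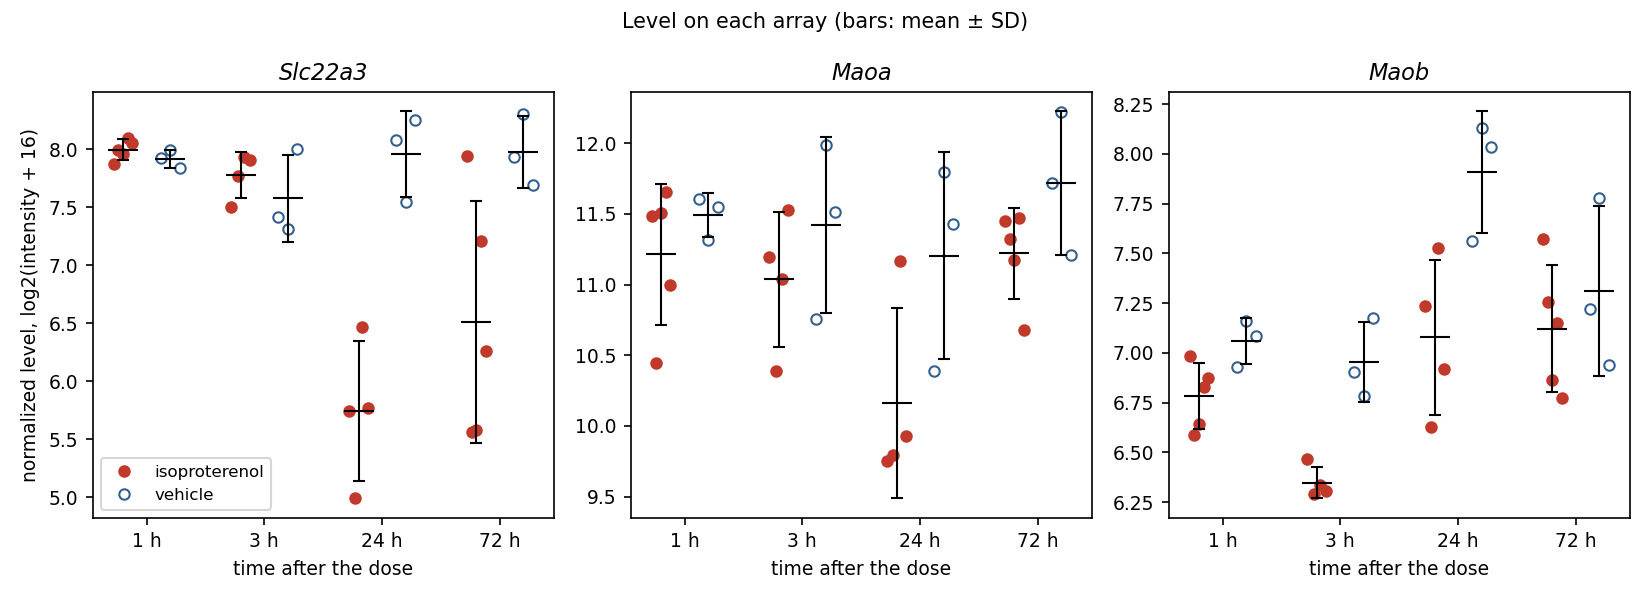
Normalized level, log2(intensity + 16), of Slc22a3, Maoa and Maob on each of the 30 arrays at 1, 3, 24 and 72 h, with filled red circles for isoproterenol, open blue circles for vehicle, and horizontal lines and bars for the mean ± SD of each group. All 4 isoproterenol arrays at 24 h, between 4.99 and 6.47, lie below every vehicle array for Slc22a3, and the Maoa groups overlap at every time.

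Maoa in isoproterenol hearts averaged lower than vehicle at every time, with groups that overlapped each time. At 1 h its level was 11.48, 10.44, 11.51, 11.65 and 10.995 in isoproterenol hearts, against 11.61, 11.32 and 11.55 in vehicle hearts, a difference of -0.27 ± 0.33 (SE). Isoproterenol replicates 2 and 5 were the low ones and the other 3 lay within or near the vehicle range. At 3 h the level was 11.20, 10.39, 11.04 and 11.53 in isoproterenol hearts, against 10.76, 11.99 and 11.51 in vehicle hearts, a difference of -0.38 ± 0.34.

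At 24 h the Maoa level was 9.75, 9.80, 11.17 and 9.93 in isoproterenol hearts, against 10.39, 11.80 and 11.43 in vehicle hearts. Isoproterenol replicates 1, 2 and 4 lay below all vehicle arrays, and replicate 3 lay between vehicle replicates 1 and 3. The means were 10.16 ± 0.68 in isoproterenol hearts (SD, n = 4) and 11.21 ± 0.73 in vehicle hearts (SD, n = 3). The difference of -1.04 ± 0.34 (SE) put isoproterenol hearts at 48.5% of vehicle, and 1.01% of tested probe sets had a more negative one. Leaving out single vehicle arrays moved that value, to -1.45 without vehicle replicate 1 and to -0.75 without vehicle replicate 2.

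At 72 h the Maoa level was 11.45, 11.32, 11.17, 11.47 and 10.68 in isoproterenol hearts, against 11.72, 12.22 and 11.21 in vehicle hearts. The difference of -0.50 ± 0.33 was under the SD of 0.51 among vehicle arrays. The order of the 8 Maoa group means ran from vehicle at 72 h, 11.72, through vehicle at 1 and 3 h, isoproterenol at 72 and 1 h, vehicle at 24 h and isoproterenol at 3 h, to isoproterenol at 24 h, 10.16. Every pair of neighbours in that order had overlapping arrays. The suffix of the Maoa probe set marks probes that can match more than 1 transcript, so its value may include another transcript.

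Maob in isoproterenol hearts was below vehicle at 3 and 24 h by less than Slc22a3 at 24 h, and was nearer to it at 1 and 72 h. At 1 h its level was 6.98, 6.59, 6.64, 6.83 and 6.87 in isoproterenol hearts, against 6.93, 7.16 and 7.09 in vehicle hearts, a difference of -0.28 ± 0.20 (SE). Isoproterenol replicate 1 was the one array that reached the vehicle range. At 3 h the level was 6.47, 6.29, 6.33 and 6.31 in isoproterenol hearts, against 6.90, 6.78 and 7.17 in vehicle hearts. The groups did not overlap, as was the case for 9% of all probe sets in that direction at 3 h, and the difference was -0.60 ± 0.21.

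At 24 h the Maob level was 7.24, 6.63, 7.53 and 6.92 in isoproterenol hearts, against 7.56, 8.13 and 8.03 in vehicle hearts. The groups were apart by a narrow gap, between isoproterenol replicate 3 and vehicle replicate 1, and they overlapped in values that were not normalized. Of all probe sets, 11.2% had isoproterenol groups wholly below vehicle at 24 h. The means were 7.08 ± 0.39 in isoproterenol hearts (SD, n = 4) and 7.91 ± 0.30 in vehicle hearts (SD, n = 3). The difference of -0.83 ± 0.21 (SE) put isoproterenol hearts at 56.2% of vehicle, and 2.42% of tested probe sets had a more negative one. At 72 h the level was 7.57, 7.25, 6.86, 7.15 and 6.77 in isoproterenol hearts, against 7.22, 7.78 and 6.94 in vehicle hearts, with overlapping groups and a difference of -0.19 ± 0.20.

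Ordered by group mean, Maob was highest in vehicle hearts at 24 h, 7.91, followed by vehicle at 72 h, isoproterenol at 72 and 24 h, vehicle at 1 and 3 h, isoproterenol at 1 h and, at 6.35, isoproterenol at 3 h. Neighbours had overlapping arrays except the last pair, in which every isoproterenol array at 1 h lay above every isoproterenol array at 3 h. At 24 h the isoproterenol mean of 7.08 was therefore close to the vehicle mean of 7.06 at 1 h, and the vehicle mean at 24 h was the high one.

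**Figure D2:**
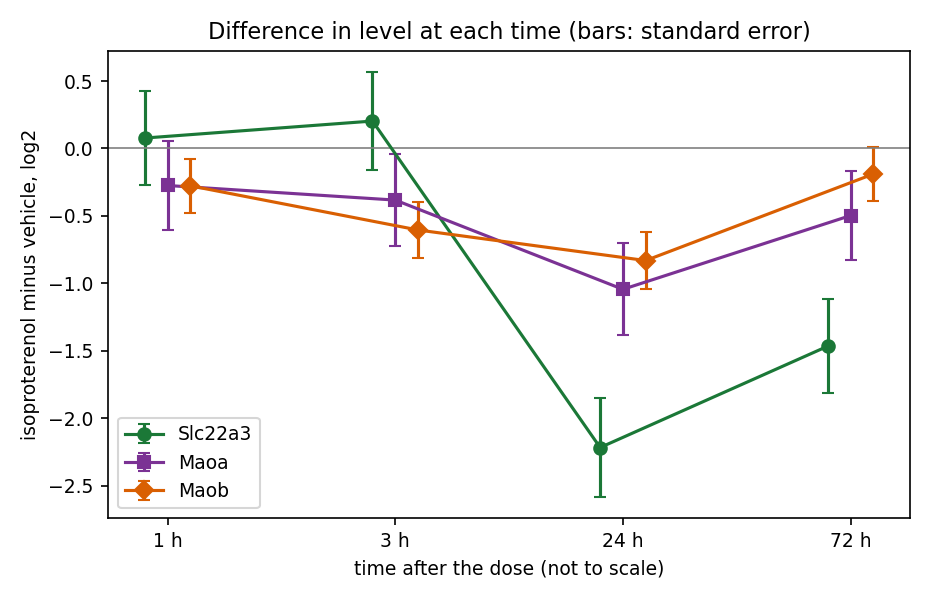
Difference in normalized level, isoproterenol minus vehicle on the log2 scale, at 1, 3, 24 and 72 h for Slc22a3, Maoa and Maob; points are limma estimates, bars are their standard errors and the time axis is not to scale. After quantile normalization all 3 genes have their lowest value at 24 h, at -2.22 for Slc22a3, -1.04 for Maoa and -0.83 for Maob.

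Among vehicle hearts alone, the group means of Slc22a3 ran between 7.58 at 3 h and 7.98 at 72 h, and those of Maoa between 11.21 at 24 h and 11.72 at 72 h. The group means of Maob ran between 6.95 at 3 h and 7.91 at 24 h, a span of 0.96. The contrasts for which the genes were picked contain these same vehicle means, so they are described without a test.

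The scaling bears on the smaller differences. Without normalization, the median of all probe sets lay at -0.23, -0.19, 0.47 and 0.36 for isoproterenol minus vehicle at 1, 3, 24 and 72 h. Without normalization and relative to that median, the difference was -2.28 at 24 h and -1.22 at 72 h for Slc22a3, -0.89 at 24 h and -0.49 at 72 h for Maoa, and -0.66 at 24 h and 0.01 at 72 h for Maob. The Maob difference at 72 h was 0.37 before the median is taken off, so its direction flips with the scaling. Without normalization the lowest difference lay at other times for Maoa and Maob, -0.47 at 1 h for Maoa and -0.83 at 3 h for Maob, and for Slc22a3 it was at 24 h, -1.81. The 24 h order of the 3 genes was the same relative to the median as after quantile normalization.

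Some markers of other cell types differed at the same times. The actin 3′ minus 5′ difference, a measure of RNA quality that rises with degradation, was lower in isoproterenol hearts than in vehicle hearts at 24 h. Of 11 monocyte and macrophage markers, 10 were higher in isoproterenol hearts at 24 h and 10 at 72 h by limma, among them Cd68 (2.74 ± 0.52, adjusted p = 0.000655, at 24 h), a lysosomal protein of macrophages, and Csf1r (1.71 ± 0.27, adjusted p = 4.2e-05, at 72 h), their growth factor receptor. The summed normalized intensity of the 11 ran between 4158 and 13220 in isoproterenol hearts and between 1148 and 1583 in vehicle hearts at 24 h. At 72 h it ran between 1842 and 9611 in isoproterenol hearts and between 1070 and 1388 in vehicle hearts. Isoproterenol replicate 1 at 72 h, whose Slc22a3 level of 7.94 lay among the vehicle arrays, had the lowest sum of its group, 1842, which was above every vehicle array, and the other 4 ran between 6880 and 9611. At 24 h, isoproterenol replicate 3 had the highest normalized Slc22a3, Maoa and Maob levels of its group and the lowest sum, 4158. Replicate 2 had the lowest normalized Slc22a3 and Maob levels and the highest sum, 13220. Replicate 3 also had the lowest array median of the group, 35.2, and the highest 3′ minus 5′ log2 difference of the actin control probe sets, 1.34. In deposited intensity its Maob, 152.9, was the lowest of the group, and its Slc22a3, 67.6, was below the 72.2 of replicate 4.

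Beside these marker counts, 13% of all tested probe sets passed at 24 h and 17.8% at 72 h in either direction. A count of 1 among 9 or 11 markers is no larger than those shares. Of 8 fibroblast markers, 1 was higher and 2 were lower at 24 h, and 6 were higher at 72 h. Their sum at 72 h ran between 24431 and 51133 in isoproterenol hearts, lowest in replicate 1, and between 15136 and 21177 in vehicle hearts. Of 11 measured cardiomyocyte markers, 1 was lower at 24 h, the calcium release channel Ryr2 (-0.52 ± 0.16, adjusted p = 0.029 by limma), and 0 passed at 72 h (1 at an unadjusted p under 0.05). Their sum at 24 h ran between 81902 and 93700 in isoproterenol hearts and between 97997 and 98915 in vehicle hearts, and at 72 h between 82534 and 96292 in isoproterenol hearts and between 94730 and 96923 in vehicle hearts. Of 9 measured endothelial markers, 1 was lower at 24 h, the VEGF receptor Kdr, and their sum ran between 3938 and 4766 in isoproterenol hearts and between 5452 and 5978 in vehicle hearts. At 72 h 1 was lower, the receptor Tie1 (-0.68 ± 0.20, adjusted p = 0.0188 by limma), and the sum ran between 3605 and 6177 in isoproterenol hearts and between 4657 and 6150 in vehicle hearts. The actin control probe sets had 3′ minus 5′ log2 differences of 0.885 to 1.34 in isoproterenol hearts and 1.46 to 1.92 in vehicle hearts at 24 h. At 72 h these differences overlapped, at 1.12 to 1.63 in isoproterenol hearts and 0.969 to 1.98 in vehicle hearts. Of 7 smooth muscle and mural markers, 4 were higher at 72 h, with sums of 1640 to 3730 in isoproterenol hearts and 1205 to 1686 in vehicle hearts, and 3 of 3 measured erythroid markers were lower, with sums of 3659 to 6089 in isoproterenol hearts and 5770 to 6401 in vehicle hearts. Of 4 measured adipocyte markers and of 4 measured skeletal muscle markers, 1 was higher and 1 lower in each list at 72 h.

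At 3 h, where the Maob groups did not overlap, markers of several cell types differed as well. Of 5 measured neutrophil markers, 4 were higher in isoproterenol hearts, with sums of 434.5 to 680.2 in isoproterenol hearts and 131.6 to 233.4 in vehicle hearts. Of 11 monocyte and macrophage markers, 2 were higher, Cd14 and Mrc1, with sums of 1454 to 1987 in isoproterenol hearts and 1264 to 1416 in vehicle hearts, which did not overlap. Of 9 endothelial markers, Tie1 (-1.28), Emcn (-1.23) and Egfl7 (-0.49) were lower and Cldn5 (1.10) was higher, with sums of 4556 to 5154 in isoproterenol hearts and 5060 to 5756 in vehicle hearts. Of 7 smooth muscle and mural markers, 2 were lower, Rgs5 and Pdgfrb (both -0.82), with sums of 1013 to 1951 in isoproterenol hearts and 1238 to 2277 in vehicle hearts. Of 8 fibroblast markers 1 was higher, Tcf21 (0.76), while the median difference of the 8 was -0.15. Fibroblast sums were 11513 to 16129 in isoproterenol hearts and 14983 to 18163 in vehicle hearts. In each of the lists of 3 erythroid, 4 adipocyte and 4 skeletal muscle markers, 1 was lower. Of all tested probe sets, 11.4% passed at 3 h in either direction. The actin 3′ minus 5′ difference at 3 h ran between 1.75 and 2.07 in isoproterenol hearts and between 0.841 and 1.96 in vehicle hearts. The part of any of these markers in the levels of Slc22a3, Maoa and Maob was not tested.

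**Figure D3:**
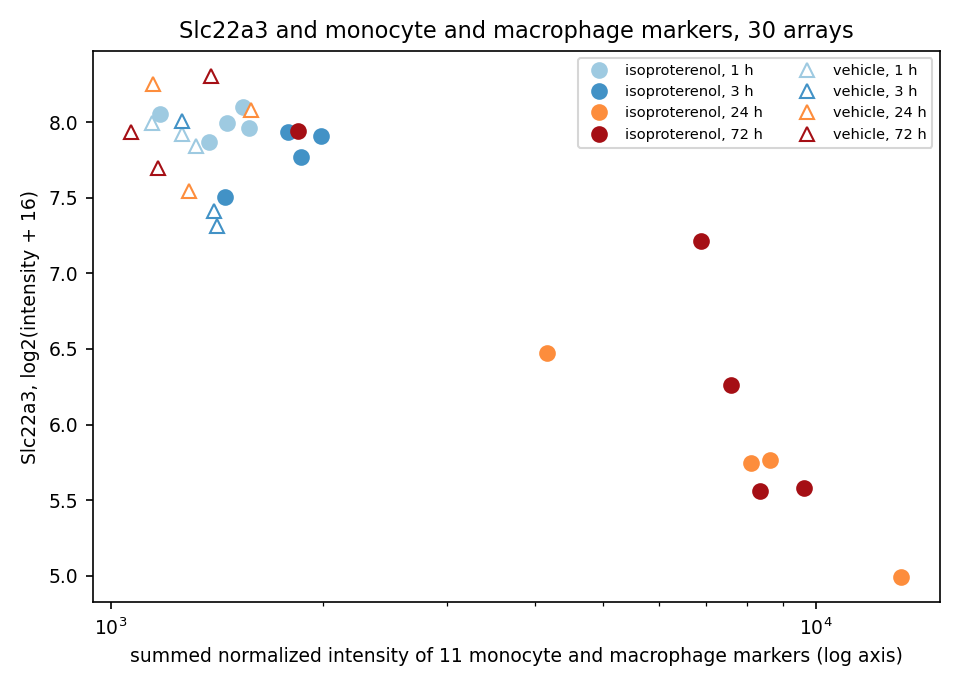
Normalized Slc22a3 level, log2(intensity + 16), against the summed normalized intensity of 11 monocyte and macrophage markers (log axis) on the 30 arrays; filled circles are isoproterenol, open triangles are vehicle, and colours give the time. The 4 isoproterenol arrays at 24 h and 4 of 5 at 72 h lie apart at high marker sums, and isoproterenol replicate 1 at 72 h has a Slc22a3 level of 7.94, within the vehicle range, at a marker sum of 1842, above the 12 vehicle arrays.

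The genes whose pattern over the 8 group means was most like each of the 3 were sought among 2984 genes with a span of at least 1 on the log2 scale; the means share arrays and normalization, so the correlations are descriptions. For Slc22a3 they were Rbfa (r = 0.990), a ribosome-binding factor of mitochondria, Pex19 (0.988), a chaperone for peroxisomal membrane proteins, Efnb3 (0.987), an ephrin ligand, Phkb (0.987), a subunit of phosphorylase kinase, and Rgn (0.985), a calcium-binding lactonase. Their isoproterenol minus vehicle differences at 24 h lay between -1.13 and -0.96, smaller than the -2.22 of Slc22a3. For Maoa they were Isoc2a (0.929), Isoc2b (0.926), Cd99l2 (0.923), Pcmtd2 (0.910) and LOC102553868 (0.905), with 24 h differences between -1.36 and -0.66. For Maob they were Ypel5 (0.967), Skida1 (0.961), Smad9 (0.939), a receptor-regulated Smad, Zfp64 (0.933) and Hmcn1 (0.933), with 24 h differences between -0.85 and -0.31. No gene appeared in more than 1 of these lists.

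Slc22a3 lies in a cluster of organic cation transporters on chromosome 1, and Maoa and Maob are neighbours on chromosome X, read from opposite strands. Of the 3 nearest named genes on each side of Slc22a3, the transporter Slc22a2, the plasminogen gene Plg and the kinase gene Map3k4 did not pass the test at any time. The mannose 6-phosphate receptor gene Igf2r was higher in isoproterenol hearts at 72 h (0.60 ± 0.17, adjusted p = 0.0147 by limma). The acyltransferase gene Agpat4 was higher in isoproterenol hearts at 1 h (0.87 ± 0.22, adjusted p = 0.0188), 3 h (1.01 ± 0.23, adjusted p = 0.00268) and 72 h (0.78 ± 0.22, adjusted p = 0.0108) by limma. At 24 h its difference was 0.65 ± 0.23 with an adjusted p of 0.0559. Beside the Maoa and Maob pair, Ndp and Cask did not pass at any time.

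The other genes of catecholamine uptake, storage, synthesis, conjugation, breakdown and signalling were taken from a list of 50, of which 36 were measured, 8 were below the filter and 6 were not analysed here. Of the 36 measured, 2 passed the test at 1 h, 1 higher and 1 lower in isoproterenol hearts. At 3 h, 9 passed, 3 higher and 6 lower, at 24 h 11 passed, 5 higher and 6 lower, and at 72 h 6 passed, 3 higher and 3 lower. Those shares were 5.56%, 25%, 30.6% and 16.7%, beside 2.65%, 11.4%, 13% and 17.8% of all probe sets. The median difference over the 36 genes was -0.01, -0.27, -0.04 and 0.05 at the 4 times, and over all probe sets -0.03, -0.05, -0.02 and -0.04. The counts rest on few arrays: 1 gene passed at 1 h without vehicle replicate 2. At 24 h, 7 passed without vehicle replicate 3, 6 without isoproterenol replicate 2 and 7 without isoproterenol replicate 4. At 72 h, 2 passed without vehicle replicate 1, 3 without isoproterenol replicate 2 and 3 without isoproterenol replicate 3.

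By limma, 0 of the 5 other measured transporters of the plasma membrane passed at any time; at an unadjusted p under 0.05 there were 2 at 1 h, 0 at 3 h, 2 at 24 h and 0 at 72 h. Slc6a2, which returns noradrenaline to nerve endings, averaged 5.01 ± 0.15 in isoproterenol hearts (SD, n = 4) and 5.50 ± 0.32 in vehicle hearts (SD, n = 3) at 24 h, with an adjusted p of 0.16 by limma. Slc22a2, the closest neighbour of Slc22a3, averaged 4.92 ± 0.46 in isoproterenol hearts (SD, n = 4) and 4.89 ± 0.45 in vehicle hearts (SD, n = 3) at 24 h, with an adjusted p of 0.971 by limma. Both lay near the filter, which is 5.29 on this scale, so the low signal limits what these values can show. The 2 measured storage genes, the vesicular transporter Slc18a2 and the calcium sensor Syt1, did not pass at any time, and 0 had an unadjusted p under 0.05 by limma. These 2 genes and the other measured transporters, Slc6a3, Slc6a4 and Slc47a1, also had group means near or below the filter level, so the same limit holds for them.

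Among 6 measured synthesis genes, 2 were higher at 3 h, and at 24 h 2 were higher and 1 was lower. Th, tyrosine hydroxylase, did not pass at any time. Its difference was -0.24 ± 0.26 at 3 h (SE, adjusted p = 0.627 by limma) and -0.08 ± 0.26 at 24 h (adjusted p = 0.888). Its group means lay near the filter level, which limits what these values can show. Gch1, the rate-limiting enzyme of tetrahydrobiopterin, the cofactor of tyrosine hydroxylase, averaged 7.25 ± 0.35 in isoproterenol hearts (SD, n = 4) and 5.19 ± 0.69 in vehicle hearts (SD, n = 3) at 3 h, a difference of 2.06 ± 0.29 (SE, adjusted p = 4.63e-06 by limma). At 24 h it was 0.90 ± 0.29 (adjusted p = 0.0328), a call lost on leaving out any 1 of vehicle replicates 2 and 3 and isoproterenol replicates 1, 2 and 4, with adjusted p up to 0.173 by limma. Dbh, which turns dopamine into noradrenaline, was higher by 0.96 ± 0.22 at 3 h (adjusted p = 0.00389) and 0.98 ± 0.22 at 24 h (adjusted p = 0.00339) by limma. Ddc, the decarboxylase that makes dopamine, was lower at 24 h (-0.77 ± 0.24, adjusted p = 0.0319), a call lost on leaving out any 1 of vehicle replicates 1 and 3 and isoproterenol replicates 2 and 4, with adjusted p up to 0.174 by limma.

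The other 2 measured genes of the deamination list were Aoc3 and Rnls, and neither passed at 24 h when the probe sets of the gene were averaged. Aoc3, the copper amine oxidase of vascular cells, was lower in isoproterenol hearts at 3 h (-0.82 ± 0.19, adjusted p = 0.00493) and 24 h (-0.81 ± 0.19, adjusted p = 0.00552) by limma. At 72 h its difference was 0.43 ± 0.19 with an adjusted p of 0.111. Rnls, the flavoprotein renalase, whose oxidation of catecholamines is disputed, averaged 7.91 ± 0.28 in isoproterenol hearts (SD, n = 4) and 7.13 ± 0.17 in vehicle hearts (SD, n = 3) at 24 h, higher by 0.78 ± 0.17 (SE, adjusted p = 0.00205 by limma). At 72 h it was higher by 0.47 ± 0.16 (adjusted p = 0.04), a call lost on leaving out any 1 of vehicle replicates 1 and 2 and isoproterenol replicates 2, 3 and 4, with adjusted p up to 0.22 by limma. Probe sets of a gene disagreed here: averaged over all tested probe sets, the 24 h difference was 0.22 for Rnls (adjusted p = 0.269), -0.52 for Aoc3 (0.0983), -0.38 for Ddc (0.228) and 0.41 for Gch1 (0.248). At 72 h it was 0.27 for Rnls (adjusted p = 0.122) and 0.32 for Papss2 (0.156), and Akr1b1 at 3 h had -0.36 (0.0707).

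Among 6 measured genes of methylation and conjugation, 1 was higher and 1 lower at each of 1, 3 and 24 h, and 2 were higher and 1 lower at 72 h. Mat2a, which makes the methyl donor S-adenosylmethionine, averaged 11.27 ± 0.07 in isoproterenol hearts (SD, n = 5) and 9.90 ± 0.02 in vehicle hearts (SD, n = 3) at 1 h, a difference of 1.37 ± 0.12 (SE, adjusted p = 4.82e-10 by limma). At 3 h its difference was 1.43 ± 0.12 (adjusted p = 5.07e-10), and at 24 h -0.02 ± 0.12 (adjusted p = 0.937). Mat2b, its regulatory subunit, was lower at 24 h (-0.53 ± 0.14, adjusted p = 0.0135 by limma), a call lost on leaving out any 1 of vehicle replicate 2 and isoproterenol replicate 2, with adjusted p up to 0.0738, and its sign flipped without normalization. Ahcy, which hydrolyses the product of methylation, was higher at 24 h (1.27 ± 0.21, adjusted p = 0.000154) and at 72 h (0.63 ± 0.20, adjusted p = 0.0254) by limma, the second lost on leaving out any 1 of vehicle replicates 1 and 2 and isoproterenol replicates 2 and 3, with adjusted p up to 0.106.

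Sult1a1, a phenol sulfotransferase that conjugates catechols, was lower in isoproterenol hearts at 1 h (-1.37 ± 0.31, adjusted p = 0.00673) and 72 h (-1.36 ± 0.31, adjusted p = 0.00232) by limma. Its 1 h call was lost without vehicle replicate 2 (adjusted p = 0.116). Papss2, which makes the sulfate donor, was lower at 3 h (-0.49 ± 0.16, adjusted p = 0.0378) and higher at 72 h (0.60 ± 0.15, adjusted p = 0.0055) by limma. The 3 h call was lost on leaving out any array of that time except isoproterenol replicate 3, with adjusted p up to 0.117, and the 72 h call without vehicle replicate 1 (adjusted p = 0.0799).

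Aldehydes from the monoamine oxidases are oxidised or reduced further, and of 9 genes for those steps, all measured, 0 passed at 1 h by limma (2 at an unadjusted p under 0.05), 3 were lower at 3 h, 3 were lower and 1 was higher at 24 h, and 2 were lower at 72 h. Aldh2, the mitochondrial aldehyde dehydrogenase, averaged 10.42 ± 0.06 in isoproterenol hearts (SD, n = 4) and 11.15 ± 0.35 in vehicle hearts (SD, n = 3) at 24 h, a difference of -0.73 ± 0.17 (SE, adjusted p = 0.00467 by limma), a call lost without vehicle replicate 3 (adjusted p = 0.069). At 72 h its difference was -0.46 ± 0.17 (adjusted p = 0.04999), a call lost without any 1 of vehicle replicates 1, 2 and 3 and isoproterenol replicates 2, 3, 4 and 5. Aldh9a1, which oxidises aminoaldehydes, was lower at 24 h (-0.74 ± 0.16, adjusted p = 0.00219) and 72 h (-0.69 ± 0.15, adjusted p = 0.002) by limma. Both calls were lost without normalization and with arrays centred on their medians, with adjusted p up to 0.844 at 24 h and 0.859 at 72 h by limma. The 24 h calls of Aldh2 and Aldh1a1 were lost under the same alternatives. Aldh1a1, a cytosolic enzyme of retinal and other aldehydes, was lower at 3 h (-1.09 ± 0.22, adjusted p = 0.000931) and 24 h (-0.69 ± 0.22, adjusted p = 0.0367) by limma, the second lost on leaving out any 1 of vehicle replicates 2 and 3 and isoproterenol replicates 1, 2 and 4, with adjusted p up to 0.2.

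Akr1a1, an aldehyde reductase, was the higher one at 24 h (0.39 ± 0.11, adjusted p = 0.0166 by limma), a call lost on leaving out any 1 of vehicle replicate 2 and isoproterenol replicates 2 and 4, with adjusted p up to 0.0739. Aldh7a1, an aldehyde dehydrogenase of lysine breakdown, was lower at 3 h (-0.48 ± 0.15, adjusted p = 0.032 by limma), a call lost on leaving out any 1 of vehicle replicates 1 and 2 and isoproterenol replicates 1 and 3, with adjusted p up to 0.155. Akr1b1, aldose reductase, was lower at 3 h (-0.36 ± 0.12, adjusted p = 0.0493 by limma), a call lost on leaving out any 1 of vehicle replicates 1 and 2 and isoproterenol replicates 2, 3 and 4, with adjusted p up to 0.225.

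Of 6 measured adrenergic receptors, 1 passed, at 3 h, and at the other times 0 passed or had an unadjusted p under 0.05 by limma. Adra1d, an alpha-1 receptor, averaged 5.95 ± 0.44 in isoproterenol hearts (SD, n = 4) and 7.18 ± 0.50 in vehicle hearts (SD, n = 3), a difference of -1.22 ± 0.27 (SE, adjusted p = 0.00211 by limma). Adrb1, the main beta receptor of heart muscle, averaged 5.54 ± 0.22 in isoproterenol hearts (SD, n = 4) and 5.81 ± 0.17 in vehicle hearts (SD, n = 3) at 3 h, with an adjusted p of 0.504 by limma. Its signal was low, beside 5.29 for the filter, which limits what these values can show. Of the 28 calls among pathway genes, 5 passed under every alternative tried: Gch1, Mat2a and Adra1d at 3 h, and Dbh and Ahcy at 24 h.

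**Figure D4:**
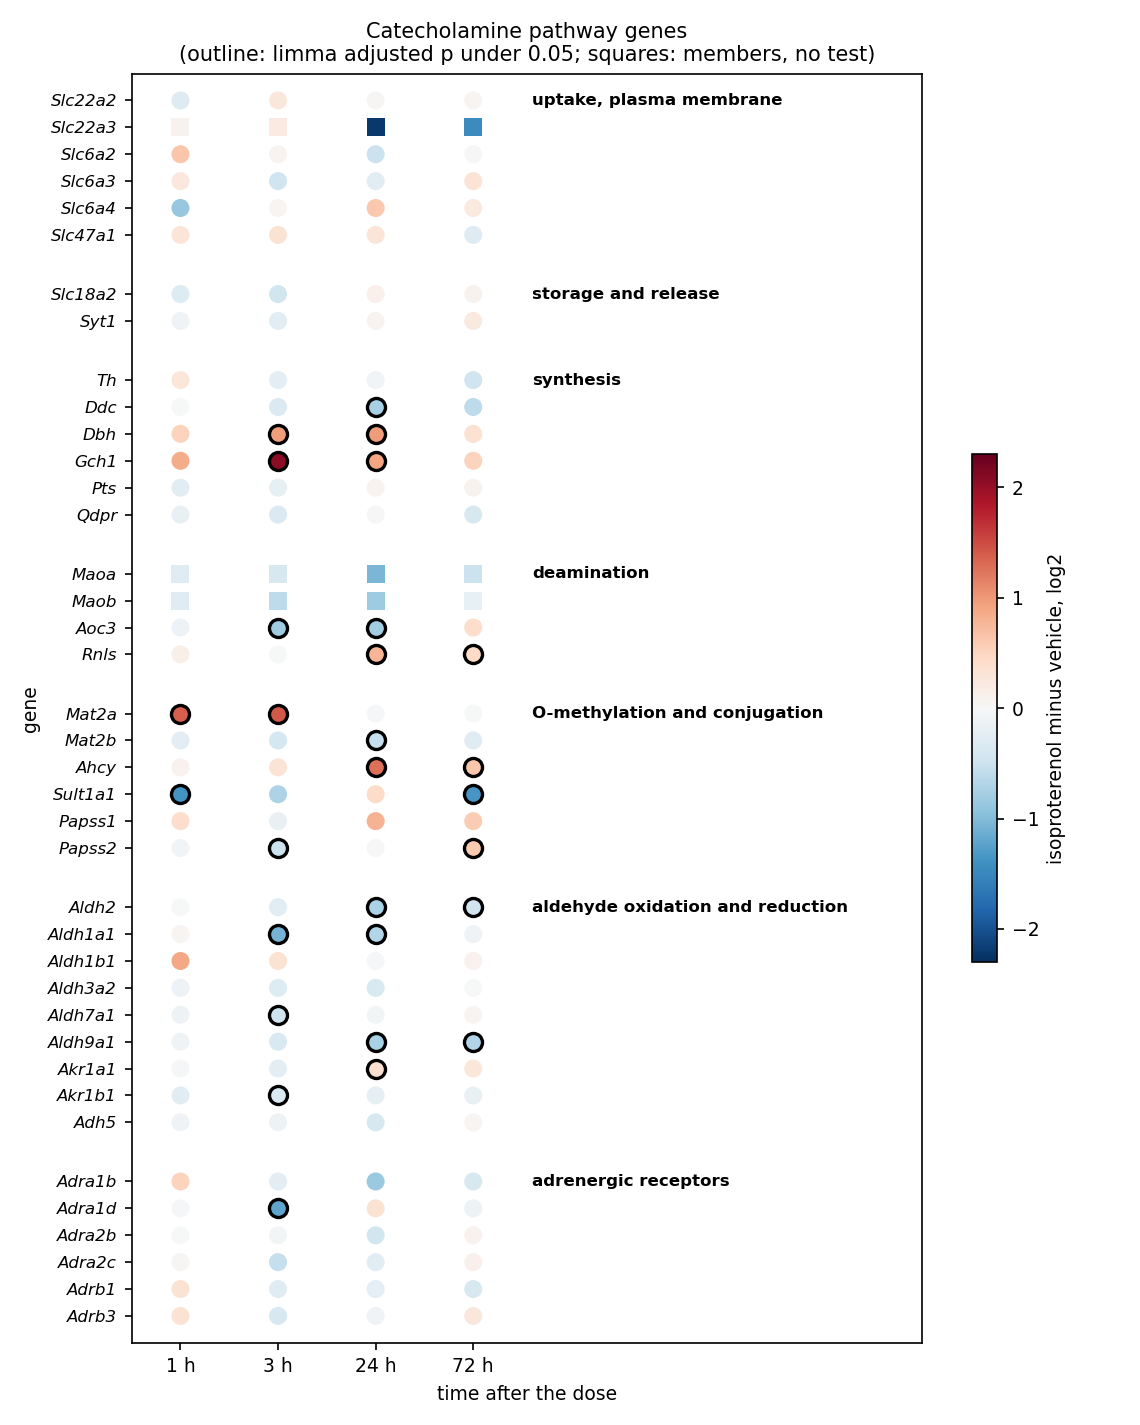
Isoproterenol minus vehicle difference in normalized log2 level (colour scale) for Slc22a3, Maoa and Maob (squares, not tested) and 36 other catecholamine pathway genes (circles) at 1, 3, 24 and 72 h; black outlines mark limma adjusted p under 0.05. Outlined circles number 2, 9, 11 and 6 at the 4 times, with none among the other uptake genes.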

How the data were processed

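Total RNA from heart tissue kept in RNAlater was extracted with a Qiagen kit and hybridised as biotinylated cRNA to 1-colour Affymetrix arrays, per the labels' protocols. The deposited values are linear intensity, 1 per probe set and array; no label or header states how the authors summarised or scaled them. Values were taken as log2(intensity + 16) and quantile normalized. Without the 57 control features, 24292 probe sets with a deposited intensity of 23 (the 40th percentile) in at least 3 arrays were kept. limma 3.58.1 in R 4.3.3 fitted 8 group means (22 residual degrees of freedom, trend in intensity); p-values are two-sided and Benjamini-Hochberg adjusted within a contrast, with a threshold of 0.05. The fit was tested on simulated data. The number of arrays limits the precision.

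Symbols were updated through gene numbers with RefSeq (GRCr8), and the brightest tested probe set stood for a gene. Named were Slc22a3, Maoa, Maob, up to 4 pathway genes past the threshold per list and time, a few fixed pathway genes (Slc22a2, Slc6a2 and Aldh2 among those measured), and the 5 genes most like each member. Adrb1, Th, the chromosomal neighbours, and marker genes such as Cd68 and Ryr2 were added after their values were seen. The genes and lists were chosen with earlier results of these data known. Alternatives covered the pseudocount, normalization, filter, variance model, array weights, replicate block, arrays fitted, probe set rule and leaving out each array. The planned F test among vehicle groups and its alternatives are not reported, because the contrasts for which the genes were picked contain the vehicle means.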

Additional observations from a re-analysis of the deposited data

Results flagged for a closer look

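Among the 12 isoproterenol groups of 4 or 5 arrays examined for a lone value of Slc22a3, Maoa or Maob, 1 was flagged. Chance alone flags about 1 in 20 of such groups, so 1 among 12 may be chance and is given as a description. Maoa in isoproterenol hearts at 24 h had replicate 3 at a normalized level of 11.17, apart from the other 3 between 9.75 and 9.93. The gap was 0.878 of the group's range, above the limit for 4 arrays. In deposited intensity replicate 3 was also the highest, at 2048.9, but less apart from replicates 1, 2 and 4 at 1316.2, 1616.5 and 1687.5. Its array median was 35.2, against 57.6, 70.1 and 70.3 for those replicates. The flag therefore holds for normalized levels, and values without normalization were not tested for it.

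The isoproterenol effect of 7 of the 36 measured pathway genes differed between successive times by limma's interaction test, adjusted over all probe sets. The share of all probe sets that passed this test is not given here, so the count cannot be set against it. Between 1 and 3 h no pathway gene passed, and the lowest adjusted p by that test was 0.0783, for Aldh1a1. Between 3 and 24 h, the effect at the later time minus that at the earlier was -1.45 for Mat2a, 1.55 for Adra1d (adjusted p = 0.0118), 0.95 for Ahcy (0.0483), 0.79 for Rnls (0.0393) and 0.63 for Akr1a1 (0.0114). Between 24 and 72 h, the difference was 1.24 for Aoc3 (adjusted p = 0.0114) and -1.80 for Sult1a1 (0.0269). These tests used the brightest probe set of each gene and were not repeated under the alternatives. With all tested probe sets averaged, the 24 h effect was 0.22 for Rnls (adjusted p = 0.269 by limma) and -0.52 for Aoc3 (0.0983). The 24 h call of Akr1a1 was lost under several alternatives.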

How the results depend on the processing

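Slc22a3 stayed negative at 24 and 72 h under every alternative, with 24 h values of -2.46 to -1.97 and 72 h values of -1.82 to -1.23 when single arrays were left out, and -1.53 at 24 h with a pseudocount of 64. Without normalization, Slc22a3 was -0.87 at 72 h, Maoa -0.43 at 24 h, and Maob -0.56 at 1 h, -0.20 at 24 h and 0.37 at 72 h, and Mat2b at 24 h reversed to 0.042 (adjusted p = 0.946 by limma). Leaving out single arrays gave Slc22a3 0.04 to 0.12 at 1 h and 0.07 to 0.42 at 3 h; Maoa -0.38 to -0.08, -0.71 to -0.10, -1.45 to -0.75 and -0.75 to -0.24 at the 4 times; and Maob -0.34 to -0.23, -0.69 to -0.49, -1.005 to -0.68 and -0.38 to 0.04.

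Pathway genes past the threshold numbered 1, 3, 5 and 3 at the 4 times without normalization, 6 at 24 h with arrays centred on their medians, 7 at 1 h and 13 at 72 h with array weights, 4, 6 and 2 at 1, 24 and 72 h in fits of only the arrays compared, and 7 at 24 h with all probe sets of a gene averaged. Leaving out single arrays gave 1 to 2, 6 to 8, 6 to 12 and 2 to 9. With the replicate number as a block, 3 passed at 72 h and 10 at 24 h, and Slc22a3 was -2.29 at 24 h. Same-numbered arrays did not deviate together (12 correlations of -0.07 to 0.12, 2 of them over 0.1), so the numbers were not taken as pairs. Over 38 named pathway results and 697 alternative values, 118 lost the threshold, 2 gained it and 1 reversed; the cause was not tested.

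Dim probe sets near the filter, among them Slc6a2 and Slc22a2, and Slc22a3 itself on isoproterenol replicate 2 at 24 h and at 72 h, lay at the low end of the measured range.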
